A study of Mus musculus with 12 samples.

Results

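Cyclin transcripts were followed through the last divisions of mouse erythroblasts, from proerythroblasts (Pro) through basophilic (Baso) and polychromatic (Poly) to orthochromatic (Ortho) erythroblasts. The members were the 10 genes named Ccna2, Ccnb1, Ccnb2, Ccnd1, Ccnd2, Ccnd3, Ccne1, Ccne2, Ccnf and Ccng2, out of 29838 genes in the table, and each symbol matched 1 row. All 10 passed the filter on low values that left 12994 genes for testing. The rule used gene names alone and no measured value, but the names were chosen with earlier results of these data known.

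Cyclins are the regulatory subunits of cyclin-dependent kinases, and their rise and destruction pace the cell cycle. D-type cyclins activate CDK4 and CDK6 and thereby inactivate the retinoblastoma protein, E-type cyclins activate CDK2 at the entry into S phase, cyclin A2 acts with CDK2 and CDK1 during S and G2 phase, and B-type cyclins drive mitosis with CDK1. Erythroblasts divide a few times while they mature and leave the cell cycle before they expel the nucleus, and cyclin D3 is known in this lineage for its part in setting the number of these divisions.

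Erythroblast RNA came from sorted bone marrow cells of WT C57BL/6 male mice aged 8 weeks, with 3 libraries for each of the 4 stages and no treatment. Cells were depleted of CD45-positive cells and gated as negative for CD45, CD11b and GR1. The Pro gate took cells with high CD44 and low Ter119 signal, and the 3 later gates split Ter119-positive cells by forward scatter and CD44. Ortho replicates 2 and 3 are labelled only as erythroblasts by cell type and were placed by their titles, and nothing states that the 3 libraries of a stage came from separate mice, so the p-values measure only the spread between these libraries, which may be technical. No cell cycle phase is given for these sorted cells, and a stage may hold cells in different phases. In bulk RNA, fewer cells holding a transcript and less of it per cell cannot be told apart.

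The values are FPKM, fragments scaled to transcript length and to the mapped fragments of the library, so that levels can be compared between genes. Library sums of FPKM ranged from 505624 to 691033, and the depth behind them is unknown. Hemoglobin genes took 6.98% to 10.7% of the sum in Pro, 33.2% to 36.7% at the Baso stage, 34.8% to 37.6% in Poly and then 47.2% to 52.6% in Ortho. FPKM is relative to all other transcripts, and over all genes tested the log2 fold change had a median of -0.23 from Pro to Baso, 0.03 from Baso to Poly, -0.08 from Poly to Ortho and -0.42 from Pro to Ortho. With hemoglobin genes left out, the medians were 0.03, 0.06, 0.04 and -0.03, and after rescaling every library to 1 common sum they were -0.38, 0.03, -0.23 and -0.72. Of 12 erythroid markers 11 were found in the table, and their summed FPKM was 38337 to 58401 in Pro and 314179 to 368452 in Ortho, most of it from the 4 hemoglobin genes of the list. From Pro to Ortho 7 of the 11 rose and 3 were called lower, the erythroid transcription factors Klf1 (-2.19) and Gata1 (-2.04) and the erythropoietin receptor Epor (-1.66), while Tfrc, the transferrin receptor, did not pass the test (0.02, adjusted p = 0.853). Over the same span 22.7% of all genes tested rose and 23.8% were called lower. Of the 4 early markers, 3 rose from Pro to Ortho, Gata2 by 1.02 (adjusted p = 0.000727), Myb by 0.37 (adjusted p = 0.00731, at 0.01 after rescaling to a common sum) and Cd44. Cd44 (the sorting antigen, whose staining falls along the gates) had a mean FPKM of 32.9 in Pro and 54.9 in Ortho, and Kit, the stem cell factor receptor, had 17.8 and 14.5. Cd44 was thus not lower at the transcript level in Ortho (limma, log2 fold change 0.72, adjusted p = 0.000544), and Kit did not pass the test (adjusted p = 0.134).

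Cyclin levels changed in 3 ways along the stages. Ccna2, Ccnb1, Ccnb2 and Ccnf were highest in Baso or Poly and fell in Ortho. Ccne1 and Ccnd3 were highest in Pro, overlapping Baso in the case of Ccnd3, and lowest in Ortho, and Ccne2 dipped in Baso, returned in Poly and fell in Ortho. Ccng2, Ccnd1 and Ccnd2 were lowest in Pro and highest in Ortho, Ccnd1 and Ccnd2 at low levels throughout. Here a gene "rose" or "fell" at an adjusted p under 0.05, from limma on log2(FPKM + 1) over all 12994 genes tested, and was "called" when the log2 fold change was also at least 1 in size. Fold changes are on this log2(FPKM + 1) scale, which understates the change of low genes.

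**Figure D1:**
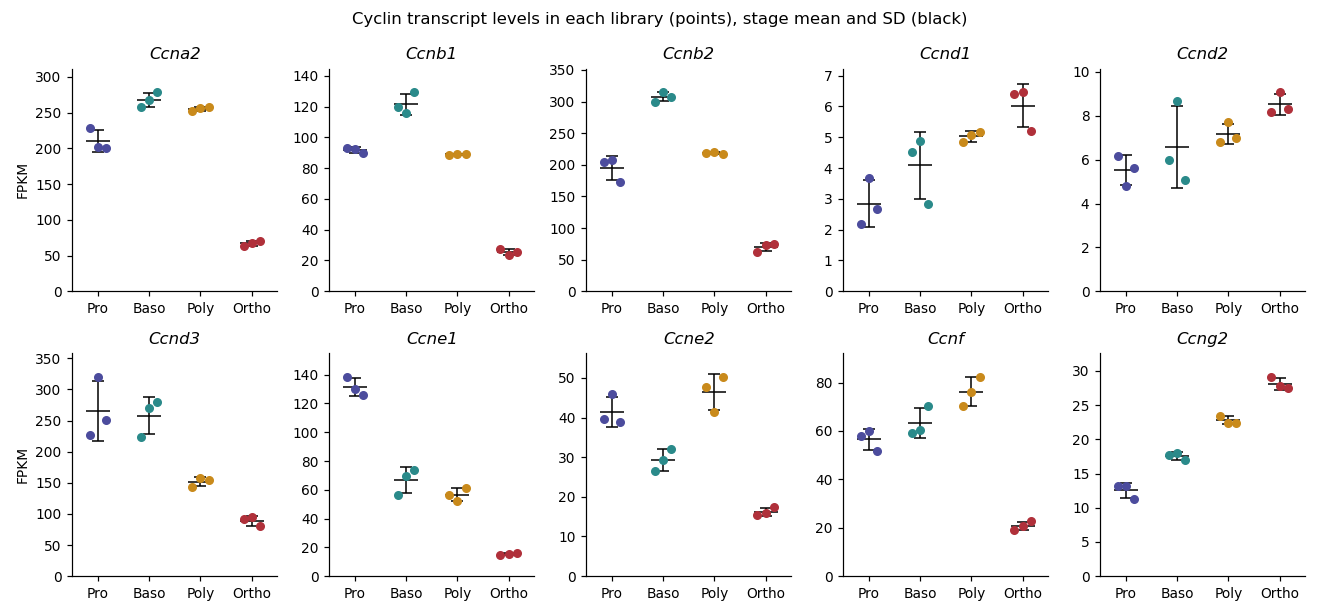
Transcript level (FPKM, linear axes from 0) of the 10 cyclins by stage, where each point is 1 library, the horizontal bar is the mean of 3 libraries and the error bars are the SD. The Ortho libraries of Ccna2 lie between 62.8 and 70.7 FPKM, below every library of the other stages, whereas those of Ccng2 lie between 27.5 and 29.1, above every other.

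From Pro to Baso, 4 members rose and 2 fell, and none was called in either direction (limma, 5 higher and 2 lower at an unadjusted p under 0.05). Of all genes tested, 14.9% rose and 42.1% fell at this step, and 1.82% were called higher and 8.54% lower. From Baso to Poly, 2 members rose and 3 fell, again with no call (limma, 3 higher and 4 lower at an unadjusted p under 0.05), against 6.58% and 5.77% of all genes that rose and fell and 0.0616% and 0.454% that were called higher and lower. The median log2 fold change of the members was 0.27 and 0.03 at these steps.

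From Poly to Ortho, 7 members fell, 6 of them called, and 1 rose without being called (limma, 1 higher at an unadjusted p under 0.05). Of all genes, 21.7% fell and 4.43% rose, and 4.81% were called lower and 1.05% higher. The members' median log2 fold change was -1.54. Across the whole span from Pro to Ortho, 7 members fell, all called, and 3 rose, 1 of them called, with a median of -1.43, whereas 53.2% of all genes fell, 22.7% rose, 23.8% were called lower and 6.33% higher. The steps share libraries, since the Baso and the Poly libraries each enter 2 of them and the whole span uses both ends, so they are not independent of each other.

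The split of calls over all genes moved with the scaling. From Pro to Baso, 237 genes were called higher and 1110 lower as deposited, 488 and 421 with hemoglobin genes left out, and 554 and 409 after centring libraries on their medians. From Poly to Ortho the numbers were 137 and 625, 188 and 469, and 196 and 437. From Pro to Ortho they were 823 and 3092 as deposited, 1990 and 1153 with hemoglobin genes left out, 2078 and 1293 with centring, and 321 and 4857 with a common sum. Of the members, the 6 called from Poly to Ortho stayed called under each scaling.

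**Figure D2:**
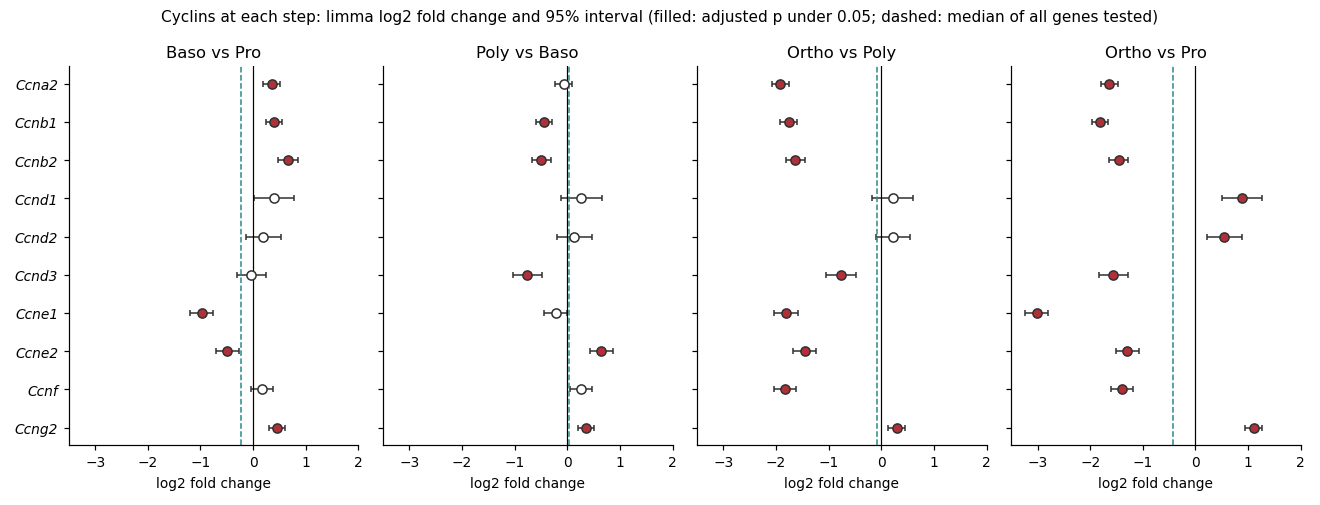
Log2 fold change (later against earlier stage, on log2(FPKM + 1)) of the 10 cyclins at each step and over the whole span, with the 95% interval from limma as bars. Filled points have an adjusted p under 0.05 and the dashed line is the median of all genes tested; at Ortho vs Poly 6 points lie below -1, and in Ortho vs Pro Ccne1 lies at -3.01. The points of Ccnd3 and Ccnf in Baso vs Pro, at -0.04 and 0.16, are unfilled and change sign with the scaling.

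Ccna2 encodes cyclin A2, which acts from S phase into mitosis. The gene lies on chromosome 3 of mm10 from 36564865 to 36572150 on the minus strand and has 8 exons in its main transcript. Its FPKM was 228, 202 and 201 in Pro, 258, 268 and 278 in Baso, 252, 257 and 257 in Poly, and 62.8, 67.0 and 70.7 in Ortho, for replicates 1, 2 and 3 in this order, which is also used for the genes that follow. No 2 neighbouring stages overlapped in the order Baso, Poly, Pro and Ortho. The mean fell 3.82-fold from Poly (255 ± 2.81, SD, n = 3) to Ortho (66.8 ± 3.98, SD, n = 3). The log2 fold change was -1.92 (standard error 0.07, adjusted p = 1.37e-08). Ccna2 had risen by 0.35 from Pro to Baso (adjusted p = 0.00145), a rise that did not pass the test after rescaling to a common sum (0.17, adjusted p = 0.0893), and its change from Baso to Poly was -0.07 (95% interval -0.22 to 0.09).

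Ccnb1 encodes cyclin B1, the main partner of CDK1 at the entry into mitosis, and lies on chromosome 13 from 100778650 to 100786570 on the minus strand, with 9 exons. The FPKM of Ccnb1 was 93.3, 92.6 and 89.5 in Pro, 119.6, 116 and 129 in Baso, 88.7, 88.9 and 89.4 in Poly, and 27.8, 23.6 and 25.4 in Ortho. All Baso libraries stood above the others and all Ortho libraries far below, whereas Pro and Poly were close to each other but did not overlap. Ccnb1 rose by 0.40 from Pro to Baso (adjusted p = 0.000533), fell by 0.44 from Baso to Poly (adjusted p = 0.00390) and fell by 1.76 from Poly to Ortho on the log2 scale (standard error 0.07, adjusted p = 1.83e-08).

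Ccnb2 encodes cyclin B2, the second B-type cyclin of dividing cells, and lies on chromosome 9 from 70407692 to 70421547 on the minus strand, with 9 exons. The FPKM of Ccnb2 was 204, 208 and 172 in Pro, 300.0, 314 and 307 in Baso, 218, 219.5 and 218 in Poly, and 62.7, 73.0 and 74.5 in Ortho. The Baso libraries were the highest and the Poly libraries lay just above the Pro libraries, without overlap. Its rise from Pro to Baso, 1.58-fold in the means, was the strongest of the members at that step (log2 fold change 0.66, standard error 0.09, adjusted p = 6.67e-05). It then fell by 0.49 from Baso to Poly (adjusted p = 0.00696) and by 1.63 from Poly to Ortho (adjusted p = 9.76e-08).

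Ccnf encodes cyclin F, which binds no cyclin-dependent kinase and serves as the substrate-binding subunit of a ubiquitin ligase active in G2 phase. It lies on chromosome 17 from 24222198 to 24251484 on the minus strand, with 17 exons. The FPKM of Ccnf was 57.8, 60.0 and 51.8 in Pro, 59.2, 60.5 and 70.3 in Baso, 70.5, 76.2 and 82.2 in Poly, and 19.2, 20.6 and 22.7 in Ortho. Its maximum was thus in Poly, with Pro and Baso overlapping, Poly just above Baso and Ortho apart from all. Neither early step passed the test: the log2 fold change was 0.16 (95% interval -0.05 to 0.37) from Pro to Baso, and 0.27 (adjusted p = 0.0903) from Baso to Poly. The first of these depended on the scaling, at -0.017 after rescaling to a common sum, 0.47 (adjusted p = 0.00262) without hemoglobin genes and 0.46 (adjusted p = 0.00263) after centring, and it passed with either of these last settings. With replicate numbers blocked and Pro left out of the model, the change from Baso to Poly passed (adjusted p = 0.0111). The fall from Poly to Ortho was 3.66-fold in the means (log2 fold change -1.83, standard error 0.10, adjusted p = 8.98e-08).

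The A-, B- and F-type transcripts, which fell into Ortho as the E-type transcripts also did, belong to the late cell-cycle genes. Promoters of such genes are known for CCAAT boxes, bound by NF-Y, and for the cell cycle genes homology region (CHR, TTTGAA), bound by the MuvB complex. Promoter windows of 250 bases before the start site were available for 6 of the 10 members (RefSeq, GRCm38.p6, the mm10 build), 7 windows in all, for Ccnb1, Ccnb2, Ccnd3, Ccne1, Ccnf and Ccng2. The promoters of Ccna2, Ccnd1, Ccnd2 and Ccne2 were not analysed here. The windows of Ccnb1, Ccnb2 and Ccnf are shown because these were the matched members with at least 2 CCAAT boxes, trimmed where the window runs into the gene as annotated by GENCODE, and given 5′ to 3′ on the strand of the gene with CCAAT and TTTGAA in capitals. They lie on the minus strand at chr9:70421555-70421804 for Ccnb2, chr13:100786571-100786736 for Ccnb1 and chr17:24251485-24251659 for Ccnf.
Ccnb2: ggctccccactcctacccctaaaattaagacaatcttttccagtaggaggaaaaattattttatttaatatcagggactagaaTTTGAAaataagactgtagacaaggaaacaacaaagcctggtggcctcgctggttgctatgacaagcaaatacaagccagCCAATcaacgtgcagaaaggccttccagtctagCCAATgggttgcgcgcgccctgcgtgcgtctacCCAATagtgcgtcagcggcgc
Ccnb1: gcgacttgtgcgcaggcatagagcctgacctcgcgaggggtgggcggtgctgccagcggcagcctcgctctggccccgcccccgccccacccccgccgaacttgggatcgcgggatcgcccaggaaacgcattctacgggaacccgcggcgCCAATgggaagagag
Ccnf: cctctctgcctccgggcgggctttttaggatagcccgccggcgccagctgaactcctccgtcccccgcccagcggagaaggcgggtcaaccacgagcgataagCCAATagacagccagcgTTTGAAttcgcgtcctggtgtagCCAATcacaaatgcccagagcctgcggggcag

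Both strands were searched for the CCAAT box and for the CHR letters TTTGAA. The search also covered E2F letters (TTTCCCGC as the main form, with TTTGGCGC as another, and also TTTGCCGC besides the form TTTCGCGC) and the FOXO motif TGTTTAC, and none of these overlapped another in the windows of the members. In Ccnb2, CCAAT began 87, 54 and 21 bases before the RefSeq start, and TTTGAA began 167 bases before it. In Ccnb1, CCAAT began 99 and 67 bases before the start, the latter inside the GENCODE gene and not shown, and TTTGAA was not in the window. In Ccnf, CCAAT began 147 and 107 bases and TTTGAA 130 and 14 bases before the start, the last one again inside the GENCODE gene. All these matches lay on the strand of the gene. Among all 32851 windows, 33.8% held at least 1 CCAAT on either strand, and 10.1% at least 2. TTTGAA was in 5252 of them, and 1.53% of all windows held both TTTGAA and at least 2 CCAAT, as Ccnb2 and Ccnf did.

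The other matched members held few of these letters. Of the windows of Ccnd3, 1 held TGTTTAC, 243 bases before the start, and the other held 1 CCAAT, 108 bases before the start. The windows of Ccne1 and Ccng2 held none of the motifs. An E2F motif was found in none of the 7 windows and in 1.86% of all windows, and TGTTTAC in 3.17% of all windows. A match is only a description of the letters, and no match says only that these letters are not in these 250 bases.

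Ccne1 encodes cyclin E1, an activator of CDK2 at the start of DNA replication. It lies on chromosome 7 from 38097984 to 38107534 on the minus strand, with 12 exons. The FPKM of Ccne1 was 138, 129.9 and 126 in Pro, 56.4, 69.5 and 73.8 in Baso, 56.4, 52.4 and 61.1 in Poly, and 14.5, 15.5 and 16.3 in Ortho. The Pro libraries were far above all others, Baso and Poly overlapped, and the Ortho libraries were far below. Ccne1 fell by 0.98 from Pro to Baso (standard error 0.10, adjusted p = 1.25e-05), just short of a call. Without Pro replicate 3, Baso replicate 2 or Baso replicate 3 the value was -1.01, -1.01 and -1.05 and would have been called. The change from Baso to Poly was -0.22 and did not pass the test (adjusted p = 0.165), except without Baso replicate 1 (-0.34, adjusted p = 0.0383). From Poly to Ortho Ccne1 fell by 1.81 (adjusted p = 1.37e-07). Over the whole span the mean fell 8.52-fold, from 131 ± 6.29 to 15.4 ± 0.890 (SD, n = 3), the largest change among the 10 cyclins in either direction.

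Ccne2 encodes cyclin E2, which shares the role of cyclin E1, and lies on chromosome 4 from 11191351 to 11204779 on the plus strand, with 12 exons. The FPKM of Ccne2 was 39.6, 45.9 and 38.9 in Pro, 26.6, 29.3 and 32.0 in Baso, 47.6, 41.4 and 50.1 in Poly, and 15.5, 15.9 and 17.4 in Ortho. Poly and Pro overlapped, Baso lay below both, and Ortho lay below all. Ccne2 fell by 0.49 from Pro to Baso (adjusted p = 0.00148) and rose by 0.64 from Baso to Poly (standard error 0.10, adjusted p = 0.00351), so that at the second step it was the member with the largest rise. The first of these changes did not pass the test with hemoglobin genes left out (-0.18, adjusted p = 0.154) or after centring libraries on their medians (-0.19, adjusted p = 0.130). From Poly to Ortho Ccne2 fell by 1.45 (adjusted p = 6.17e-07).

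Within each library, the E-type sum moved from Ccne1 towards Ccne2. Ccne1 made up 76.0% ± 1.94 of the summed FPKM of both genes in Pro, 69.4% ± 1.21 at the Baso stage, 55.0% ± 0.844 in Poly and then 48.6% ± 0.632 in Ortho (SD, n = 3), and no 2 neighbouring stages overlapped. These shares are ratios within a library and do not depend on its scaling. The sum of both fell from 173 ± 7.02 FPKM in Pro to 31.7 ± 1.86 in Ortho.

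Ccnd3 encodes cyclin D3, the D-type cyclin known for its role in erythroblast divisions, and lies on chromosome 17 from 47505051 to 47599691 on the plus strand, with 7 exons in its main transcript. The FPKM of Ccnd3 was 227, 319 and 251 in Pro, 224, 269.8 and 280.0 in Baso, 143, 158 and 154 in Poly, and 91.2, 95.3 and 80.3 in Ortho. Pro and Baso overlapped, with Pro replicate 2 above every Baso library, and Poly and Ortho each lay below the stage before. The log2 fold change from Pro to Baso was -0.04 (95% interval -0.31 to 0.24), and its sign depended on the scaling, at 0.28 when hemoglobin genes were left out and 0.26 with centring on the median, neither past the test. Ccnd3 fell by 0.76 from Baso to Poly (standard error 0.13, adjusted p = 0.00543) and by 0.77 from Poly to Ortho (adjusted p = 0.000661). It was the only member that fell at both of these steps without rising before, while Ccnb1 and Ccnb2 fell at both after a rise. Neither step alone was called, but the whole span was (log2 fold change -1.56, adjusted p = 5.84e-07).

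Ccnd1, on chromosome 7 from 144929931 to 144939925 on the minus strand with 5 exons, encodes cyclin D1, a D-type cyclin of many other tissues. The FPKM of Ccnd1 was 2.18, 3.69 and 2.66 in Pro, 4.53, 4.89 and 2.84 in Baso, 4.84, 5.07 and 5.18 in Poly, and 6.40, 6.46 and 5.21 in Ortho. Neighbouring stages overlapped except Poly and Ortho, which were barely apart. Ccnd1 passed the test at none of the single steps (limma, 1 of 3 steps with an unadjusted p under 0.05, adjusted p 0.0726 to 0.450). From Pro to Baso its change of 0.40 became 0.63 (adjusted p = 0.0115) without hemoglobin genes, 0.69 (adjusted p = 0.00753) after centring, 0.55 (adjusted p = 0.0209) without Pro replicate 2 and 0.59 (adjusted p = 0.00984) without Baso replicate 3, and passed in each. Over the whole span Ccnd1 rose by 0.88 (standard error 0.18, adjusted p = 0.000707), with a range of 0.49 to 1.28 over the alternatives, at the upper end of which it was called.

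Ccnd2, on chromosome 6 from 127125162 to 127152193 on the minus strand with 5 exons, encodes cyclin D2. The FPKM of Ccnd2 was 6.16, 4.80 and 5.61 in Pro, 5.98, 8.66 and 5.07 in Baso, 6.82, 7.71 and 6.99 in Poly, and 8.19, 9.06 and 8.32 in Ortho. Baso replicate 2 was higher than the other Baso libraries and every Poly library, and lay within the range of Ortho. Ccnd2 passed the test at no single step (limma, adjusted p 0.293 to 0.590), and without Baso replicate 3 its change from Baso to Poly was -0.0084. From Pro to Baso its change of 0.19 passed at 0.46 (adjusted p = 0.0267) without hemoglobin genes and at 0.49 (adjusted p = 0.0195) after centring. Ccnd2 rose by 0.55 over the whole span (standard error 0.15, adjusted p = 0.00571), which did not pass after rescaling to a common sum (0.23, adjusted p = 0.165).

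Ccnd3 was the main D-type transcript at every stage. It made up 96.9% ± 0.483 of the summed FPKM of the 3 D-type genes in Pro, 96.0% ± 1.10 at the Baso stage, 92.6% ± 0.108 in Poly and then 85.9% ± 0.318 in Ortho (SD, n = 3). Pro and Baso overlapped, and the later stages did not overlap the stage before. Ccnd2 accounted for 2.08% in Pro and 8.26% in Ortho, and Ccnd1 for 1.03% and 5.81%. The D-type sum itself fell from 274 ± 48.1 FPKM in Pro and 269 ± 29.8 in Baso to 164 ± 8.11 in Poly and 103 ± 8.71 in Ortho.

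**Figure D3:**
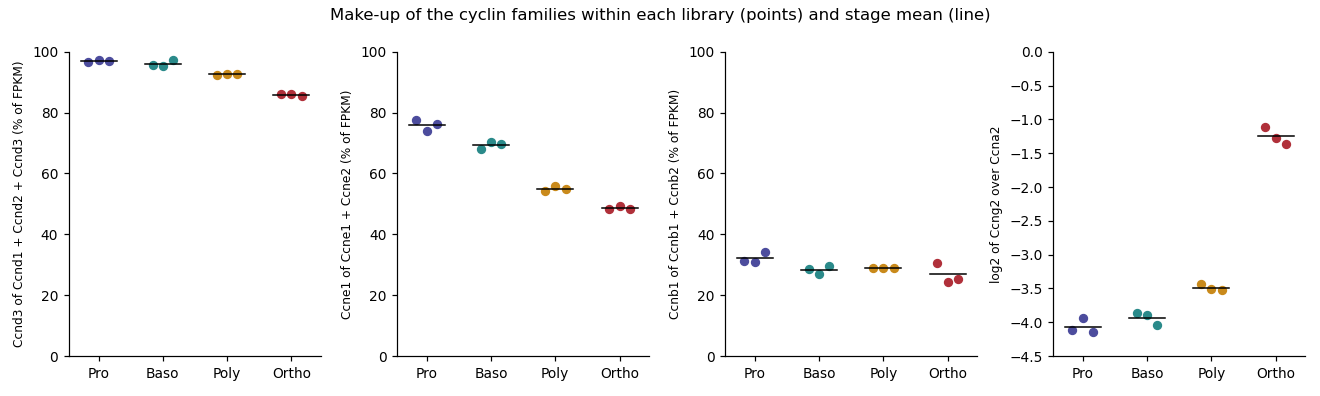
Share of Ccnd3 in the D-type sum, of Ccne1 in the E-type sum and of Ccnb1 in the B-type sum (percent of FPKM, axes from 0 to 100), and log2 of Ccng2 over Ccna2, by stage; each point is 1 library and each line the mean of 3 libraries. The Ccne1 share falls from 76.0% to 48.6% without overlap of neighbouring stages, the Ccnb1 share overlaps between Baso, Poly and Ortho, and the log2 ratio rises to -1.25 in Ortho.

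Ccng2 encodes cyclin G2, an atypical cyclin known as a target of FOXO transcription factors and for its association with cell cycle arrest. It lies on chromosome 5 from 93267257 to 93276231 on the plus strand, with 8 exons. The FPKM of Ccng2 was 13.2, 13.1 and 11.3 in Pro, 17.7, 18.0 and 16.9 in Baso, 23.4, 22.5 and 22.4 in Poly, and 29.1, 27.8 and 27.5 in Ortho. Each stage lay above the one before without overlap. Ccng2 was the only member that rose at all 3 steps, by 0.46 (adjusted p = 0.000286), 0.36 (adjusted p = 0.0125) and 0.29 (adjusted p = 0.0103). It was the only member called higher over the whole span, at 2.24-fold in the means (log2 fold change 1.11, standard error 0.07, adjusted p = 1.13e-07). Some of these results moved with the processing: after rescaling to a common sum the last step was 0.11 (adjusted p = 0.346) and the whole span 0.76, no longer called, and without Baso replicate 3 or Poly replicate 1 the adjusted p of the middle step was 0.0523 and 0.0547.

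Relative to Ccna2 in the same library, Ccng2 stood at -4.07 ± 0.111 in Pro, -3.93 ± 0.0935 at the Baso stage, -3.49 ± 0.0531 in Poly and then -1.25 ± 0.127 in Ortho on the log2 scale of the FPKM ratio (SD, n = 3). Pro and Baso overlapped, and the ratio in Poly and in Ortho lay above all earlier libraries. This ratio does not depend on the scaling of the library. Among the 10 members ordered by mean FPKM, Ccng2 was the eighth in Pro, Baso and Poly and the fourth in Ortho, where it followed Ccnd3 (88.9), Ccnb2 (70.1) and Ccna2 (66.8) but overlapped Ccnb1 (25.6), the next below. The first place was held by Ccnd3 in Pro (266), where it overlapped Ccna2 (210.1), by Ccnb2 in Baso (307), by Ccna2 in Poly (255) and again by Ccnd3 in Ortho.

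B cell and neutrophil markers rose from Pro to Ortho, as did Ccnd1, Ccnd2 and Ccng2, the cyclins with their highest level in Ortho. All 9 B cell markers were tested, and their summed FPKM was 81.3 to 137 in Pro, 149.7 to 182 at the Baso stage, 201 to 239.7 in Poly and then 194 to 269.8 in Ortho. All 9 rose from Pro to Ortho and 7 were called, Cd79a, a subunit of the B cell receptor, by 1.41 (adjusted p = 5.29e-05). Of all genes tested, 22.7% rose over this span and 6.33% were called higher. All 8 neutrophil markers were tested as well, and their sum was 7041 to 8895 in Pro, 12227 to 14404 at the Baso stage, 15787 to 18777 in Poly and then 14030 to 17431 in Ortho. These 8 rose from Pro to Ortho and 3 were called, with S100a9, a calcium-binding protein of neutrophils, at a mean FPKM of 2633 in Pro and 6101 in Ortho.

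The remaining marker lists were smaller or moved in both directions. Of 8 macrophage markers 3 were tested, and the sum over the list was 27.0 to 32.7 in Pro, 37.0 to 39.2 at the Baso stage, 46.3 to 52.4 in Poly and then 61.3 to 71.9 in Ortho, with Cd68 and Csf1r called higher over the span. After rescaling to a common sum these calls were lost (Cd68 0.84, Csf1r 0.76), as were those of S100a9 (0.87), S100a8 (0.75), Vpreb3 (0.87) and Igll1 (0.68), whereas that of Cd79a held (1.05). Of 6 T and NK cell markers 2 were tested, and both rose from Pro to Ortho without a call. Of all genes tested, 22.7% rose and 53.2% fell over this span, and 6.33% were called higher and 23.8% lower. Of the 6 megakaryocyte markers 4 were called lower from Pro to Ortho, and Itga2b rose by 0.39 (adjusted p = 0.0338, at 0.04 after rescaling to a common sum). With hemoglobin genes left out the call of Ppbp was lost (-2.09), whereas those of Pf4 (-1.33) and Gp9 (-1.52) held. Of 5 stromal and endothelial markers tested, the collagen genes Col1a1 and Col1a2 were called lower, whereas the endothelial genes Pecam1 and Cdh5 rose, Pecam1 by 0.91 (adjusted p = 4.72e-06) and Cdh5 by 0.74 (adjusted p = 0.00101). The collagen levels varied widely between the Pro libraries, at 39.8 ± 45.3 FPKM for Col1a1 and 29.6 ± 34.6 for Col1a2 (SD, n = 3). The sum over this list was 18.8 to 170 in Pro and 18.9 to 20.6 in Ortho. No marker was at 0 in every library. From Poly to Ortho, no B cell or neutrophil marker passed the test (limma, none with an unadjusted p under 0.05). At this step 2 of the 3 macrophage markers rose, against 4.43% of all genes, and Ccng2 rose by 0.29. After rescaling to a common sum the change of Ccng2 was 0.11 (adjusted p = 0.346), and those of Cd68 and Csf1r were 0.41 and 0.20. The part of these other cells in the levels of Ccnd1, Ccnd2 and Ccng2 was not tested.

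The other cyclin genes were examined in the same way, 16 in the table and 13 after the filter. From Poly to Ortho, 4.81% of all genes tested were called lower and 1.05% higher. None of the 13 was called there (limma, 6 lower and none higher at an unadjusted p under 0.05), against 6 of the 10 members. The 4 of them that fell at this step were among the 7 tested cyclins of transcription and RNA processing, such as Ccnl2, a cyclin of splicing, at -0.79 (adjusted p = 3.28e-05), and Ccnk, the partner of CDK12, at -0.52 (adjusted p = 0.00135). Ccnt1, a subunit of the elongation factor P-TEFb, fell by 0.59 (adjusted p = 0.00416), and Ccnl1, also a splicing cyclin, was at -0.48 (adjusted p = 0.0825). Ccnyl1, a relative of Ccny, was at -0.16 (adjusted p = 0.558). Ccni, with the highest level of the remaining cell cycle group, was at 102 ± 2.83 FPKM in Poly and 91.3 ± 5.44 in Ortho (SD, n = 3) and did not pass the test (adjusted p = 0.119). Over the whole span 10 of the 13 fell and 1 rose, where 53.2% of all genes fell and 22.7% rose. The 2 that were called, both lower against 23.8% of all genes, were Ccny (-1.07) and Ccnh (-1.16). With hemoglobin genes left out, their values were -0.61 and -0.70. Ccng1, the closest relative of Ccng2, fell by 1.02 from Pro to Baso (adjusted p = 3.98e-06), the step at which Ccng2 rose, and by 0.72 and so without a call with hemoglobin genes left out.

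Of the 8 partner genes tested, 4 fell from Poly to Ortho, 2 of them called, and all 8 fell over the whole span, 6 of them called. Among all genes, 21.7% fell and 4.81% were called lower at that step, and 53.2% and 23.8% over the span. Without hemoglobin genes the whole-span calls of Cks2 (-0.78) and Cks1b (-0.65) were lost, and after centring they were lost as well (-0.87 and -0.74). Those of Cdk1 (-1.55) and Cdk4 (-1.22) held without hemoglobin genes. Values of the called genes not named here are not given for these scalings. Cdk1, the mitotic kinase, fell by 2.30 from Poly to Ortho (adjusted p = 0.000180), although its libraries varied widely before (103 ± 44.2 FPKM in Poly and 87.0 ± 43.6 in Pro, SD, n = 3). Cks2, which encodes a small subunit of CDK1 complexes, fell by 1.33 (adjusted p = 2.59e-05), and its relative Cks1b fell by 0.91 (adjusted p = 5.48e-06). Cdk4, the partner of the D-type cyclins, instead fell between Pro (174 ± 17.2 FPKM) and Baso (56.1 ± 5.15) (log2 fold change -1.61, adjusted p = 1.31e-06), a step at which Ccnd3 did not pass the test, and was at 44.7 in Poly and 52.6 in Ortho.

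Enzymes that switch the kinases on or off were tested in 6 cases, and all 6 fell from Poly to Ortho, 2 of them called. At this step 21.7% of all genes fell and 4.81% were called lower. Plk1, a mitotic kinase that promotes CDK1 activation, fell by 1.79 (adjusted p = 5.27e-06), and Pkmyt1, a kinase that inhibits CDK1, fell by 0.89 (adjusted p = 5.24e-06). Cdc25b, a phosphatase that activates CDK1, was called higher from Pro to Baso, by 1.79 (adjusted p = 5.06e-06), and then fell by 0.70 from Poly to Ortho (adjusted p = 0.00564). Cdc25a, the family member that acts on CDK2 in S phase, fell by 0.67 from Pro to Baso (adjusted p = 2.99e-05).

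Genes of cyclin destruction split at the last step, with 6 of 11 called lower and 7 fallen in all, against 4.81% and 21.7% of all genes. Ube2c, the ubiquitin-conjugating enzyme of the anaphase-promoting complex, rose by 1.27 from Pro to Baso (adjusted p = 6.08e-07) and fell by 1.82 from Poly to Ortho (adjusted p = 7.52e-09). Ube2s, the enzyme that extends the ubiquitin chains, fell by 1.30 at the last step (adjusted p = 9.13e-05). Cdc20, the mitotic activator of that complex, fell by 1.37 from Poly to Ortho (adjusted p = 3.23e-07). Fzr1, its activator in G1 phase, was the only gene of the list that rose at this step, by 0.40 (adjusted p = 0.000512), and it was called higher from Pro to Ortho, from 48.1 ± 2.66 to 206 ± 3.74 FPKM (SD, n = 3, log2 fold change 2.07, adjusted p = 1.69e-09).

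Among the retinoblastoma family and MuvB genes, 7 of 9 fell from Poly to Ortho and 4 were called, against 21.7% and 4.81% of all genes. Mybl2, the MYB protein that turns MuvB into an activator, fell by 1.71 (adjusted p = 8.98e-08). Foxm1, a transcription factor of mitotic genes, fell by 1.26 (adjusted p = 6.11e-05). Rbl1, which encodes the related p107, fell by 0.83 (adjusted p = 4.89e-06). Rb1, the retinoblastoma gene, rose by 0.57 from Pro to Baso (adjusted p = 0.000313) and fell by 1.37 from Poly to Ortho (adjusted p = 6.03e-07).

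Of the 7 inhibitors of cyclin-dependent kinases, 4 passed the filter, and they did not move as a group. Cdkn1b, which encodes p27, had 17.0 ± 2.71 FPKM in Pro, 40.0 ± 2.39 at the Baso stage, 43.5 ± 2.68 in Poly and then 101 ± 33.7 in Ortho (SD, n = 3), and was called higher from Pro to Baso (1.20, adjusted p = 0.000211) and from Poly to Ortho (1.15, adjusted p = 0.000517), the latter at 0.96 and so not called after rescaling to a common sum. Cdkn2d, which encodes the CDK4 and CDK6 inhibitor p19, rose from 35.0 ± 10.8 in Pro to 210.4 ± 25.9 in Poly and fell by 2.54 into Ortho (adjusted p = 7.97e-06). Cdkn2c, which encodes p18, fell by 1.74 at the same step (adjusted p = 3.63e-06). Cdkn1a, which encodes p21, passed the test in no comparison as deposited (limma, whole span 0.72, adjusted p = 0.0623), but was called higher over the span without hemoglobin genes (1.15) and after centring (1.11).

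The FOXO factors, known regulators of Ccng2, were tested as 3 genes and all 3 rose from Pro to Ortho. Over this span 22.7% of all genes rose and 6.33% were called higher. Foxo3, the family member best known in erythroblasts, was called higher by 1.17 (adjusted p = 2.85e-07) and Foxo4 by 1.04 (adjusted p = 3.16e-07), whereas Foxo1 rose by 0.79 (adjusted p = 1.84e-05). After rescaling to a common sum Foxo3 and Foxo4 rose by 0.80 and 0.68 and were no longer called.

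**Figure D4:**
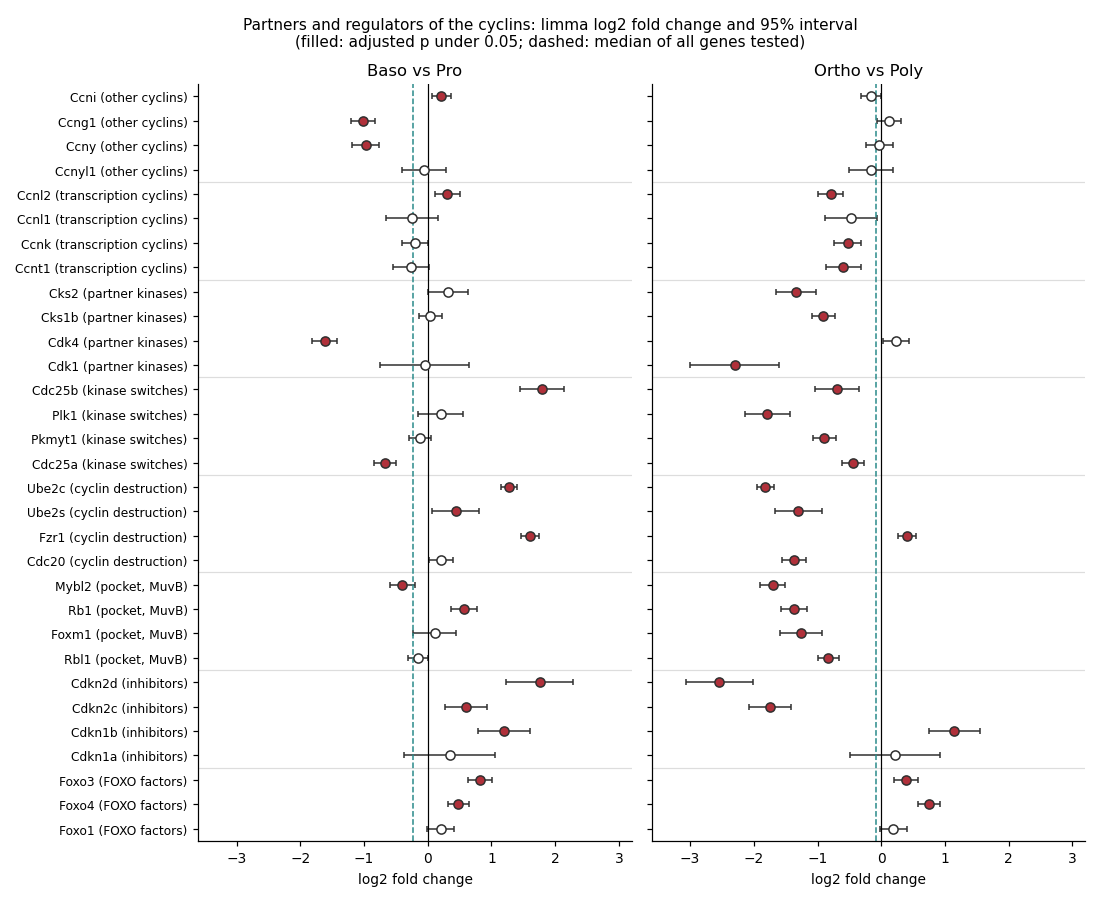
Log2 fold change from Pro to Baso (left) and from Poly to Ortho (right) of the 4 genes of highest mean FPKM in each list of partners and regulators (3 FOXO factors), with the 95% interval from limma; filled points have an adjusted p under 0.05 and the dashed line is the median of all genes tested. On the right Cdk1 lies at -2.30 and Cdkn2d at -2.54, and Cdkn1b at 1.15; unfilled points near 0 such as Ccny on the right (-0.03) and Cdk1 on the left (-0.05) change sign with the scaling.

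The genes whose stage profile was most like that of a cyclin were found from the root mean square difference of the 3 log2 differences of Baso, Poly and Ortho from Pro, over the 4 stage means of 3 libraries each. Nearest to Ccna2 were Ncapg, a condensin subunit (0.058), Kif4, a chromosome-bound kinesin (0.064), and Kifc5b (0.067). Nearest to Ccnb1 were Aqp1, a water channel of the red cell membrane (0.034), Cpox, an enzyme of heme synthesis (0.055), and Micall2 (0.081). Nearest to Ccne1 were Gfi1b, an erythroid transcriptional repressor (0.114), Hmgb3 (0.171) and Tarsl2 (0.174). Nearest to Ccnd3 were Mdc1, a DNA damage response protein (0.065), 4930430F08Rik (0.085) and Ampd3, the AMP deaminase of red cells (0.093). Nearest to Ccng2 were Cbfb, the partner subunit of RUNX proteins (0.016), Mndal (0.018) and Sept9, a septin (0.018).

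The likeness between members themselves was uneven. Of all other tested genes, Ccnf was the nearest member to Ccna2, at rank 34 (0.194), followed by Ccnb1 at rank 46 (0.214) and Ccnb2 at rank 47 (0.215). Ccne2 stood at rank 3459 from Ccne1 (1.29). Ccnd1 stood at rank 458 from Ccng2 (0.157), and Ccnd3 at rank 11040 (1.82). These ranks describe 4 stage means and carry no test.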

How the data were processed

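RNA was sequenced from 12 libraries of sorted mouse bone marrow erythroblasts, 3 for each of the 4 stages Pro, Baso, Poly and Ortho, which were assigned from the sample titles and labels. Per the submitters' processing notes and the paper's methods, the authors trimmed reads with Cutadapt and Trimmomatic, aligned them to mm10 with HISAT2, and used SAMtools and featureCounts. The FPKM were calculated and deposited by the authors. The FPKM tool, the annotation and the versions are not given in the sources used here. Trizol and NEBNext Ultra are named in the labels, whereas the paper's methods describe Geek lysis and KAPA Hyper Prep libraries.

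Removing 1 repeated identifier from the 29839 lines left 29838 genes. Positions came from GENCODE M21 on mm10, and Sept9, a symbol turned into a date, was restored from its identifier. No step of single fragments was visible among low FPKM (1819 genes, 6.22% of ratios in the most common bin), so depth is unknown and counting error cannot be stated. Precision comes from the 3 libraries of a stage. No pair of libraries held identical values.

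Genes reaching an FPKM of 1 in 3 or more libraries, 12994 in all, were tested on log2(FPKM + 1), thus with a pseudocount of 1, by limma 3.58.1 (R 4.3.3) with a variance trend and all 12 libraries in 1 model. Two-sided p-values received a Benjamini-Hochberg adjustment over all genes tested, and calls were made at an adjusted p under 0.05 with a log2 fold change of 1 or more in size. The authors' DESeq2 test needs counts and was not repeated. Tested on simulated data for Baso vs Pro with 12994 genes, the model recovered 97.5% of 200 changed genes with 4 false calls. The sizes of change used there are not given here, so this percentage does not carry over to the members. Recovery at the other steps and under the other scalings was not tested. Shares and ratios within a library were not tested. Figures were drawn with Python 3.11.15 and matplotlib 3.10.9.

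The members, gene lists and tests were chosen with earlier results of these data known. Besides the 10 members, the text names the 4 genes of highest mean FPKM in each list of other cyclins, partners and regulators (3 FOXO factors) and the 3 genes most like each of Ccna2, Ccnb1, Ccne1, Ccnd3 and Ccng2. Ccnh and the marker genes named were picked after their values were seen. The replicate number was tried as a block. The correlation of deviations from the stage means was 0.156 to 0.319 between libraries of the same number in Baso, Poly and Ortho. Between Pro and the others it was 0.00524 to 0.0968. Libraries of different numbers were not compared in this way, so a pairing by number is not established. The other alternatives were other pseudocounts, filters and scalings, no trend, only the stages compared, the adjusted p alone and each library left out.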

Additional observations from a re-analysis of the deposited data

How the results depend on the processing

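Of 896 values of the members under the alternatives, 872 kept their direction and side of the threshold, 7 fell short of it, 11 newly passed it and 6 changed sign. Several alternatives could move only the p-value and not the direction. These were no trend, only the stages compared, the replicate block and leaving out a library of a stage outside the comparison. All 6 calls from Poly to Ortho held under every alternative run. The Pro to Baso change of Ccnd3 was 0.28 with hemoglobin genes left out, 0.26 with centring on the median and -0.14 to 0.10 with 1 library left out; that of Ccnf was -0.017 after rescaling to a common sum, and the Baso to Poly change of Ccnd2 was -0.0084 to 0.33 with 1 library left out. The counts of called members were as follows. From Pro to Baso, none was called lower as reported, but 1 (Ccne1) with a common sum and 0 to 1 with 1 library left out, and 2 lower and 4 higher by the adjusted p alone. From Baso to Poly, the adjusted p alone gave 3 lower and 2 higher, and from Poly to Ortho 1 higher. From Pro to Ortho, 4 instead of 7 were called lower with hemoglobin genes left out, when Ccnb2, Ccne2 and Ccnf fell by 0.97, 0.82 and 0.92. At this span, 1 was called higher as reported, 2 with a pseudocount of 0.1, with hemoglobin genes left out or with centring, 0 with a pseudocount of 5 or a common sum, 3 by the adjusted p alone, and 1 to 2 with 1 library left out, where 2 were called without Pro replicate 2. With 1 added to the FPKM before the shares, Ccnd1 made up 1.38% of the D-type sum in Pro, 3.61% in Poly and 6.59% in Ortho, Ccnd2 4.90% in Poly and 8.97% in Ortho, and Ccnd3 96.2%, 91.5% and 84.4%, and the log2 ratio of Ccng2 to Ccna2 in Poly was -3.43. The causes were not tested.

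With the replicate block in Baso, Poly and Ortho, 17 genes were called higher and 57 lower from Baso to Poly, against 8 and 59 without it, and Ccnf newly passed the test there (0.27, adjusted p = 0.0111). With the block in all 12 libraries, Ccnd1 passed from Pro to Baso (0.40, adjusted p = 0.0478). The block changed no other result of the members. Ccnd1 had no value under the filter on a mean FPKM of at least 5. With the depth unknown, the precision of low members such as Ccnd1 rests on 3 libraries a stage.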

Other observations

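Among the A-, B- and E-type transcripts, the sums by family peaked at different stages. Ccna2, Ccnb1 and Ccnb2 together had 497 ± 31.6 FPKM in Pro, 697 ± 18.8 at the Baso stage, 563 ± 3.23 in Poly and then 162.5 ± 8.73 in Ortho (SD, n = 3), with no overlap between neighbouring stages, whereas Ccne1 and Ccne2 together had 173 ± 7.02, 95.9 ± 11.7, 103 ± 8.75 and 31.7 ± 1.86, with Baso and Poly overlapping. The share of Ccnb1 in the B-type sum was 32.1% ± 1.81 in Pro, 28.3% ± 1.32 at the Baso stage, 28.9% ± 0.145 in Poly and then 26.8% ± 3.37 in Ortho, where Baso, Poly and Ortho overlapped.

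By rank among the 12994 genes tested, Ccna2 exceeded 97.8% of them in Pro and 93.8% in Ortho, and Ccne1 96.1% in Pro and 71.2% in Ortho. Ccng2 exceeded 55.8% in Pro and 84.2% in Ortho. These shares are descriptions of the stage means and were not tested.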
